A study of Mus musculus with 16 samples.

Results

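The wound and stress keratins examined here were the 4 genes Krt6a, Krt6b, Krt16 and Krt17, chosen by name, of 22579 genes with counts, among which were 50 other keratin genes. All 4 were measured in every library and passed the minimum of a mean of 1 count in both assays. Cells came from hair follicle stem cell (HFSC) 3D–3C organoids of C57BL/6J mice that were cultured for 2 weeks and sorted on α6 integrin and CD34 into α6+/CD34− progenitors and α6+/CD34+ HFSCs. The organoids were left untreated or received N1-acetylspermidine (N1-AcSpd), an acetylated polyamine, for 72 h, at a dose that the labels do not give. RNA-seq and ribosome profiling (Ribo-seq) libraries were made for each of these 4 groups from each of 2 donor mice, which gave 16 libraries and n = 2 per group and assay. Mouse AG53 is replicate 1 and mouse AF95 is replicate 2. The age of the mice is not given in the labels, and all groups share the organoid culture and the sort.

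Keratins are the intermediate filament proteins of epithelial cells, and each filament is built from pairs of a type I and a type II keratin. Krt6a and Krt6b are type II keratins, and Krt16 and Krt17 are their type I partners. In resting epidermis between the follicles these keratins are scarce, while the outer root sheath and companion layer of the hair follicle, the nail bed and the tongue hold them constantly. After wounding and in inflamed skin, keratinocytes at the edge switch them on, and cultured keratinocytes usually carry them as well.

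How far the reads of these genes can be told apart bears on every value below. Krt6a (ENSMUST00000023788) lies at chr15:101689910-101694307 and Krt6b (ENSMUST00000023786) at chr15:101676023-101680287, both on the minus strand of GRCm38 with 9 coding exons each. Their coding sequences, of 1659 and 1662 bases, were identical at 1622 of 1659 aligned bases (97.8%). Krt16 (ENSMUST00000007280, chr11:100246091-100248902) and Krt17 (ENSMUST00000080893, chr11:100256217-100261029) also share a strand, the minus strand, and have 8 coding exons each, but matched at only 75.3% of 1293 aligned bases. A footprint spans roughly 28 bases, so the share of coding 28-base words found nowhere else in the genome or the annotated transcripts was counted. It was 22.7% of 1632 words in Krt6a, 21.9% in Krt6b, 38.0% of 1380 in Krt16 and 77.8% of 1272 in Krt17. Krt6a shared 69.4% of its words with Krt6b, 22.3% with the predicted gene Gm5478 (23 RNA counts in all), 13.3% with Krt5, a basal keratin, and 12.3% with Gm5414 (7316 RNA counts). Krt16 shared 37.5% with the predicted gene Gm11597 and 23.7% with Krt14, and Krt17 shared 16.5% with Krt14.

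The next windows, read 5′ to 3′ on the coding strand from GRCm38, show where the pairs can and cannot be told apart, with differing bases in capitals. The first pair lies in exon 1 of Krt6a (chr15:101694188-101694215) and of Krt6b (chr15:101680163-101680190), at coding bases 34 to 61, where a footprint cannot be assigned to either gene.
Krt6a, identical window: agccaccgtggctacagtgccagctcag
Krt6b, identical window: agccaccgtggctacagtgccagctcag
The second pair lies in exon 4 of Krt6a (chr15:101692501-101692528) and of Krt6b (chr15:101678320-101678347), at coding bases 832 to 859, where the pair differed at 6 bases, the most of any window.
Krt6a, most different window: gaCagtctAAcagaTgaTatcaacttcT
Krt6b, most different window: gaTagtctTGcagaCgaGatcaacttcC
The third pair lies in exon 8 of Krt16 (chr11:100246252-100246279) and of Krt17 (chr11:100256420-100256447), where 19 of the 28 bases differed.
Krt16, most different window: TTCAACcaGctTCAGccAgAGCcaAAGT
Krt17, most different window: CAAGGTcaTctCATCccGgGAAcaGGTG
Of the words starting in exon 4, 96.9% were unique in Krt6a and 62.5% in Krt6b, whereas exon 5 held none in either gene.

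Cd34 RNA, the sort marker, was between 2.35 and 5.36 CPM (TMM-scaled counts relative to library size) in the progenitor libraries and between 67.4 and 89.9 CPM in the HFSC libraries. RNA-seq libraries held 21601141 to 31505435 counts on the transcripts used and Ribo-seq libraries only 34467 to 267921. One feature touches the treated HFSCs: across 12242 genes the RNA difference between replicates 1 and 2 in that group correlated at −0.41, −0.38 and −0.63 with the same difference in the other 3 groups, which correlated between 0.35 and 0.67 with each other. Across 1029 genes it also correlated at −0.38 with the footprint difference of the same lysates, against 0.17, 0.28 and 0.38 in the other groups. Footprint differences of the groups correlated with each other only between 0.015 and 0.10, across 2259 genes. In RNA-seq the 2 treated HFSC replicates may therefore carry each other's number. Group means and the tests below do not use the numbers, except in fits with the mouse as a block, in ratios of single lysates and where TE is fitted without 1 lysate.

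RNA of all 4 keratins was abundant. Per kilobase of transcript, Krt17 stood at rank 15 of 22481 genes with a mean of 2998 CPM per kb, Krt6a at rank 27 with 2471, Krt16 at rank 84 with 1213 and Krt6b at rank 266 with 262. Of the 50 other keratins, Krt14 and Krt5, the pair of basal keratinocytes, had more RNA per kilobase, at 9425 and 9104 CPM per kb, and Krt15 came next below Krt6b at 196 CPM per kb. The 4 genes made up 0.942 to 1.73% of the RNA-seq counts on the transcripts used and 20.8 to 32.1% of the keratin counts of a library.

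Krt6a, the most abundant by counts, had 6105 and 5982 CPM in untreated progenitors, 3958 and 4914 CPM in untreated HFSCs, 7233 and 6546 CPM in treated progenitors, and 5164 and 5121 CPM in treated HFSCs (replicates 1 and 2). Every progenitor library lay above every HFSC library.

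Krt6b, its near copy, had 611 and 586 CPM in untreated progenitors, 355 and 297 CPM in untreated HFSCs, 1248 and 844 CPM in treated progenitors, and 277 and 475 CPM in treated HFSCs. Here too the 4 HFSC libraries lay below the 4 progenitor libraries, and treated progenitors lay above all others.

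Krt16, a type I partner of keratin 6 and a common marker of activated epidermis, had 2216 and 1749 CPM in untreated progenitors, 1374 and 999 CPM in untreated HFSCs, 3476 and 2419 CPM in treated progenitors, and 1048 and 1912 CPM in treated HFSCs. The groups overlapped through 1 treated HFSC library, replicate 2, which stood above an untreated progenitor library.

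Krt17, a regulator of growth and of inflammatory signalling in keratinocytes, had 4177 and 6227 CPM in untreated progenitors, 3365 and 4381 CPM in untreated HFSCs, 5102 and 5948 CPM in treated progenitors, and 3943 and 4052 CPM in treated HFSCs. The untreated HFSC and progenitor libraries overlapped.

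**Figure D1:**
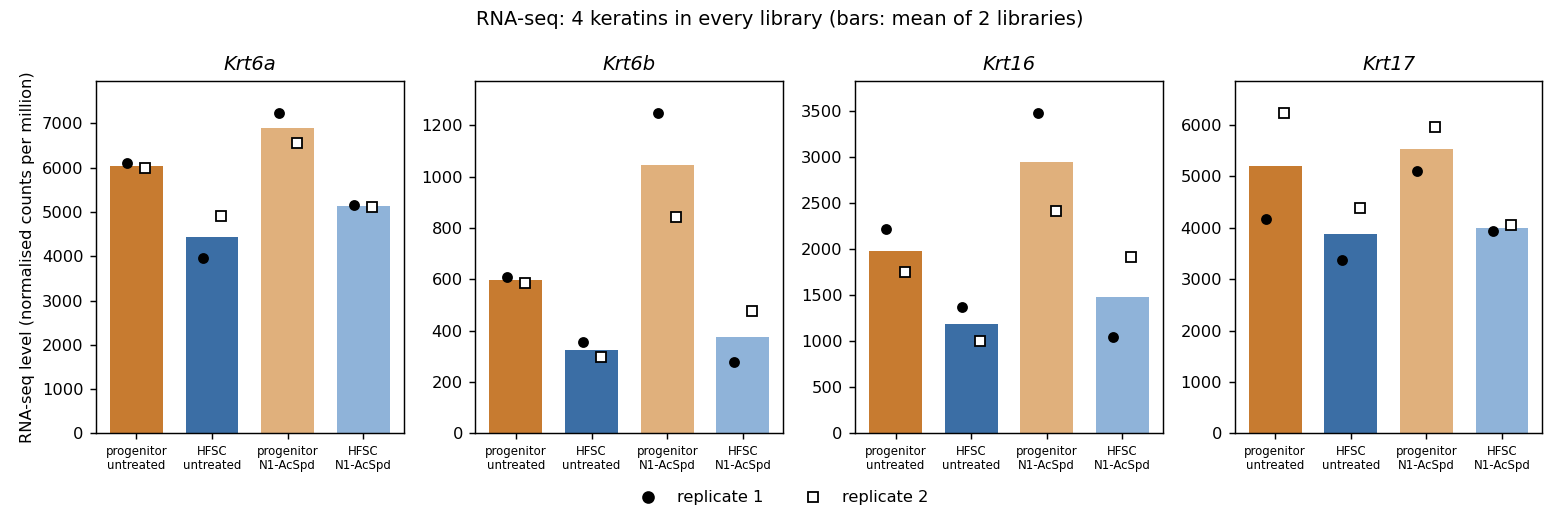
RNA-seq level (normalised CPM, linear axis from 0) of each keratin in the 4 groups; bars are means of 2 libraries, filled circles replicate 1 and open squares replicate 2. The HFSC bars (blue) are below the progenitor bars (orange) for each gene and treatment, and Krt6b ran from 277 to 1248 CPM.

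The first comparison asks how the keratins differ between HFSCs and their progeny. In untreated cells all 4 had less RNA in HFSCs, with fitted log2 fold changes of −0.45±0.13 (s.e.) for Krt6a, −0.88±0.26 for Krt6b, −0.74±0.30 for Krt16 and −0.43±0.20 for Krt17. In the edgeR quasi-likelihood test, Benjamini-Hochberg adjusted over 14205 genes, 0 of 4 passed, with adjusted p between 0.262 and 0.556, where 0.148% of all genes passed. At an unadjusted p under 0.05, 3 of 4 were lower (Krt17 was not), against 4.37% of all genes, and DESeq2 called Krt6b alone, among 268 of 14205 genes.

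In treated cells, Krt6b RNA was 2.78-fold lower in HFSCs (log2 −1.48±0.26, adjusted p = 0.0472) and was the 1 keratin called of 4, where 0.746% of all genes were called. The others were at −0.42±0.13 (Krt6a), −0.99±0.30 (Krt16) and −0.47±0.20 (Krt17), with adjusted p of 0.225 to 0.429, and all 4 had an unadjusted p under 0.05, against 5.37% of genes that were lower at that level. The Krt6b call rested on single libraries: its adjusted p was 0.255 without treated progenitor replicate 1, 0.0511 without treated progenitor replicate 2 and 0.200 without treated HFSC replicate 1. With the mouse as a block the adjusted p of Krt6b was 0.104. With both treated HFSC replicates swapped in that block, an alternative chosen after seeing the data, Krt6a, Krt6b and Krt16 were called (3 of 4, among 903 of 14205 genes), as they were between untreated cells (among 751 genes). The swap was chosen from replicate differences in these same counts, which such a block takes out of the spread. Its calls here and below are thus not separate support.

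Averaged over both treatments, with 4 libraries on each side, Krt6b was 2.26-fold lower in HFSCs (log2 −1.18±0.18, adjusted p = 0.0122) and Krt6a 1.35-fold lower (log2 −0.43±0.09, adjusted p = 0.0364), so that 2 of 4 members were called, where 3.91% of all genes were. The 4 libraries on each side came from the same 2 mice, and this fit does not use that pairing. Krt16 at −0.87±0.21 (adjusted p = 0.0596) and Krt17 at −0.45±0.14 (adjusted p = 0.132) did not pass. All 4 were lower at an unadjusted p under 0.05, as were 8.88% of genes, and in Krt6a and Krt6b every HFSC library lay below every progenitor library, as in 4.42% of genes. Added up as 1 feature, Krt6a and Krt6b gave −0.50, with an adjusted p of 0.0220. The Krt6b call was lost without untreated HFSC replicate 2 (adjusted p = 0.0537), and the Krt6a call when any library but untreated HFSC replicate 2 or treated progenitor replicate 2 was left out (adjusted p of 0.0889 to 0.162). Krt16 passed without treated HFSC replicate 2 (−1.10, adjusted p = 0.0233) and DESeq2 called all 4, among 949 of 14205 genes, as did the swapped block, among 1948. In such bulk samples, fewer cells that hold a keratin and less of its RNA per cell cannot be told apart.

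The median of the 4 log2 changes averaged over treatments was −0.66, against −0.01 over all genes tested. Of all 14205 genes, 256 were called lower in HFSCs and 300 higher. Of 32 other keratins tested, 4 were lower in HFSCs and 1 was higher, with a median of −0.15. The lower ones were Krt1 (−1.75±0.26) and Krt10 (−1.87±0.34), the keratins of the suprabasal epidermis, with Krt78 (−1.89±0.32) and Krt80 (−1.01±0.17), which belong to late differentiation. The higher one was Krt15 (1.86±0.08), a keratin of the bulge. The pair of the basal layer did not pass, with Krt5 at −0.14±0.08 and Krt14 at −0.16±0.08. Krt42 (0.22±0.17), Krt90 (0.37±0.31) and Krt19 (0.36±0.24), which were also among the 8 other keratins with most RNA, did not pass either.

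The second comparison asks what N1-AcSpd did to these keratins; it uses the same libraries as the first, so the values are not independent of it. In progenitors the fitted RNA changes with treatment were 0.19±0.13 for Krt6a, 0.81±0.26 for Krt6b, 0.57±0.29 for Krt16 and 0.09±0.20 for Krt17. No member passed (0 of 4, adjusted p of 0.368 to 0.958 by edgeR, where 0.239% of genes passed). Krt6b alone had an unadjusted p under 0.05 by edgeR, as did 4.48% of genes in the higher direction, and DESeq2 called it (0.82, adjusted p = 0.0344) among 174 of 14205 genes. With the swapped block Krt6b and Krt16 were called (2 of 4), as were 446 of 14205 genes. Krt6b was 1.03 higher in log2 CPM in mouse 1 and 0.53 higher in mouse 2, and Krt16 was 0.65 and 0.47 higher.

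In HFSCs the changes with treatment were 0.21±0.13, 0.21±0.25, 0.32±0.29 and 0.05±0.20 in the same order, and 0 of 4 passed by edgeR, adjusted or not, or by DESeq2 after adjustment, where 0% of genes passed by edgeR after adjustment. By the replicate numbers as deposited, the Krt16 difference was −0.39 in mouse 1 and 0.94 in mouse 2 on the log2 scale. Averaged over cell types, the changes were 0.20±0.09, 0.51±0.18, 0.45±0.21 and 0.07±0.14, again with 0 of 4 called (1.64% of genes called). Krt6b alone was higher at an unadjusted p under 0.05, as were 7.63% of genes, and DESeq2 called it (0.51, adjusted p = 0.0429) among 581 of 14205 genes. The swapped block again called Krt6b and Krt16, among 1260 of 14205 genes. No member was above untreated in every treated library, as 3.95% of genes were. Of the 32 other keratins, Krt1 (1.64±0.26, adjusted p = 0.0221) and Krt78 (1.74±0.32, adjusted p = 0.0403) were higher and Krt15 (−0.99±0.08, adjusted p = 0.00446) was lower.

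Whether treatment changed the gap between the cell types was tested as an interaction. Its log2 values were 0.02±0.18 for Krt6a, −0.60±0.36 for Krt6b, −0.25±0.41 for Krt16 and −0.04±0.28 for Krt17. By edgeR 0 of 4 passed, adjusted or not, and 0% of genes did after adjustment, and DESeq2 called 0 of 4. With 1 library left out the Krt6b value ran from −1.04 to −0.29, and it passed an unadjusted p of 0.05 without treated progenitor replicate 2, without treated HFSC replicate 2 and with the swapped block. The larger Krt6b gap in treated cells is thus not shown to differ from that in untreated cells.

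**Figure D2:**
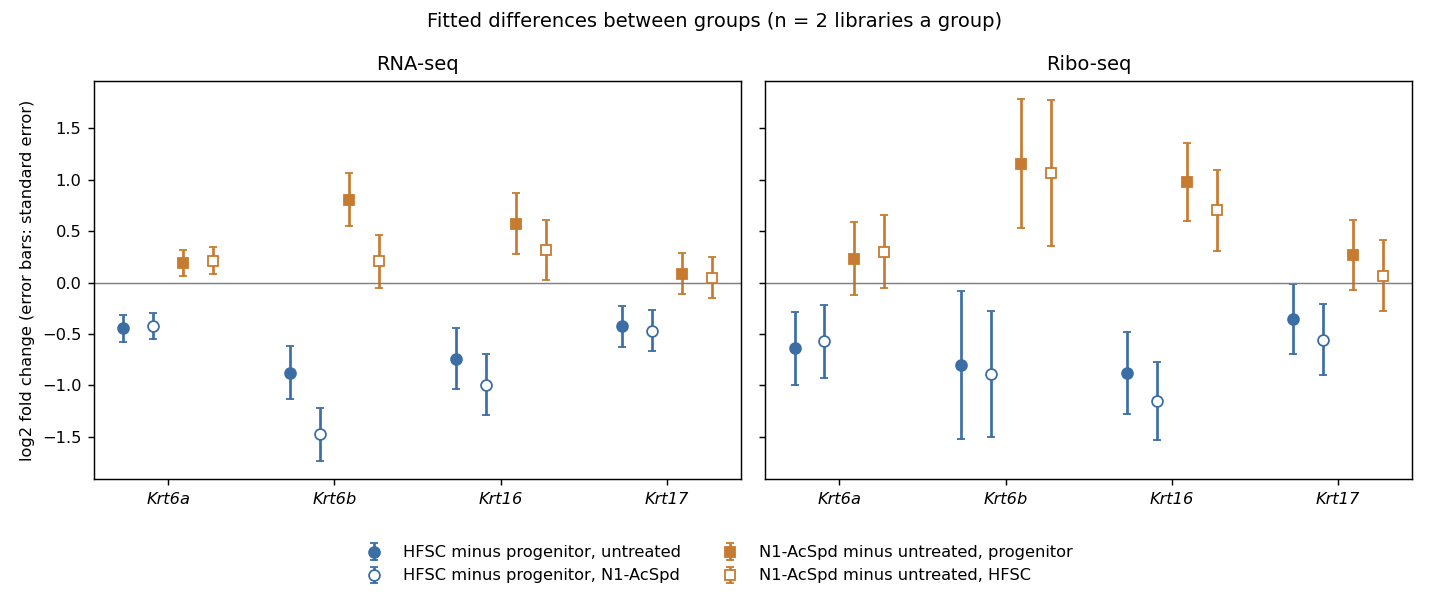
Fitted log2 fold changes between groups for each keratin in RNA-seq (left) and Ribo-seq (right), with standard errors; circles compare HFSCs with progenitors and squares N1-AcSpd with untreated, filled in the untreated cells or progenitors and open in the treated cells or HFSCs. All circles lie below 0 and all squares above it, while the Ribo-seq errors of Krt6b reach 0.72.

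Footprints mark ribosomes on an mRNA, and their counts were low. Over the 8 Ribo-seq libraries there were 3058 footprints on Krt17, 1867 on Krt6a, 880 on Krt16 and 111 on Krt6b. Per kilobase of coding sequence, Krt17 stood at rank 31 of 22402 genes, Krt6a at 111, Krt16 at 213 and Krt6b at 2231.

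Krt17 had 3700 and 4143 footprint CPM in untreated progenitors, 2991 and 3162 CPM in untreated HFSCs, 4855 and 4609 CPM in treated progenitors, and 3308 and 3136 CPM in treated HFSCs. Every HFSC library was below every progenitor library, as for 1.25% of genes, and Krt17 was the 1 member of which this was true.

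Krt6a had 2215 and 2643 footprint CPM in untreated progenitors, 1343 and 1774 CPM in untreated HFSCs, 3212 and 2514 CPM in treated progenitors, and 2310 and 1526 CPM in treated HFSCs. The cell types overlapped, since treated HFSC replicate 1 stood above untreated progenitor replicate 1.

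Krt16 had 881 and 1082 footprint CPM in untreated progenitors, 698 and 409 CPM in untreated HFSCs, 2278 and 1626 CPM in treated progenitors, and 1270 and 431 CPM in treated HFSCs. The treated progenitors were the highest group, and treated HFSC replicate 1 stood above both untreated progenitor libraries.

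Krt6b had 2 and 33 footprints in untreated progenitors, 4 and 7 in untreated HFSCs, 19 and 15 in treated progenitors, and 30 and 1 in treated HFSCs. A count of 3, the limit that a count of 0 would allow, equals 11.2 to 87.0 CPM depending on the library, so the Krt6b levels of 16.6 to 251 CPM lay near that limit in several libraries, and groups cannot be ordered from them.

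**Figure D3:**
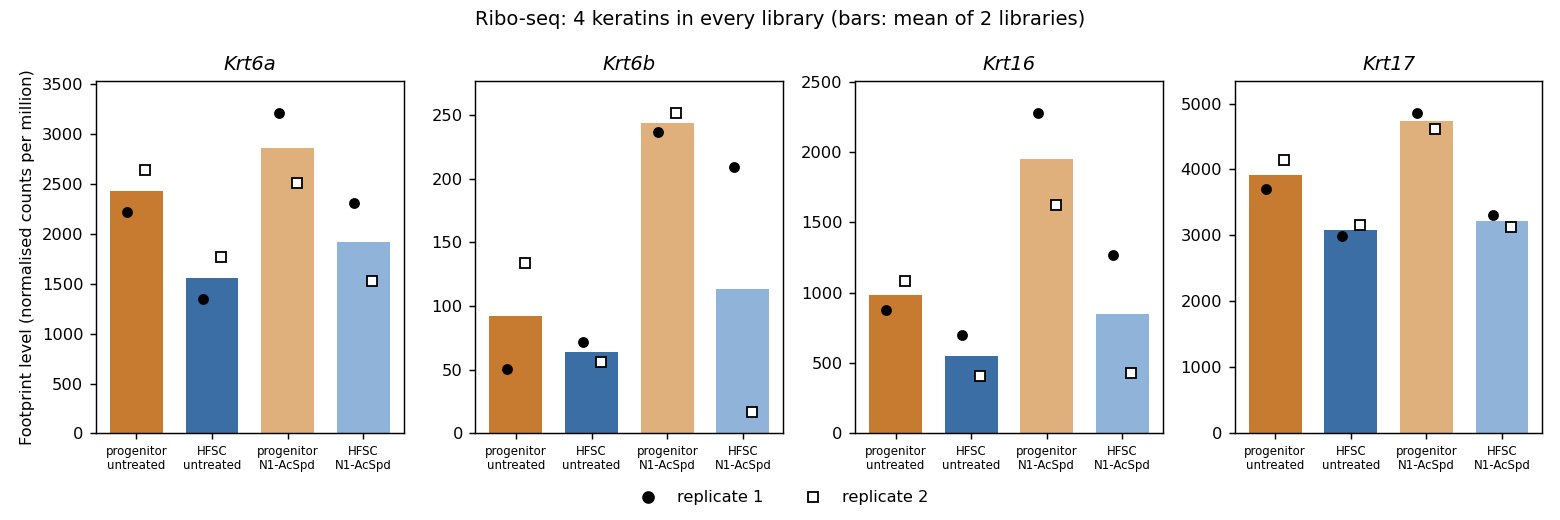
Footprint level (normalised CPM, linear axis from 0) of each keratin in the 4 groups, with bars and symbols as in the plot of RNA levels. Krt17 replicates lie close together, whereas the Krt6b points rest on 1 to 33 footprints.

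No member passed in Ribo-seq by edgeR's test with adjustment over 8431 genes. Between untreated HFSCs and progenitors (0.0237% of genes called) the log2 changes were −0.64±0.36 for Krt6a, −0.80±0.72 for Krt6b, −0.88±0.40 for Krt16 and −0.35±0.34 for Krt17. At an unadjusted p under 0.05 Krt16 alone was lower, against 1.42% of genes, and DESeq2 called 0 of 4. Between treated cells (0.0356% of genes called) they were −0.57±0.35, −0.89±0.62, −1.15±0.38 and −0.55±0.34, with an unadjusted p under 0.05 for Krt16 alone (1.59% of genes lower). Averaged over treatments (0.154% of genes called), Krt16 footprints were 2.02-fold lower in HFSCs (−1.02±0.27, adjusted p = 0.0946). With the mouse as a block Krt16 passed (−1.11±0.26, adjusted p = 0.0148), among 16 of 8431 genes. It also passed without untreated progenitor replicate 1 (−1.05, adjusted p = 0.0147) or treated HFSC replicate 1 (−1.51, adjusted p = 0.00880). Without any of the other 6 libraries Krt16 did not pass (−0.72 and an adjusted p of 1.00 at the most extreme, without treated HFSC replicate 2), nor did it in a block with the treated HFSC footprint numbers exchanged. Krt6a was at −0.60±0.25 (adjusted p = 0.975), Krt6b at −0.84±0.47 and Krt17 at −0.45±0.24, and 2 of 4 were lower at an unadjusted p under 0.05 (Krt6a and Krt16), where 2.03% of genes were.

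With N1-AcSpd the footprint changes in progenitors were 0.23±0.35 for Krt6a, 1.15±0.63 for Krt6b, 0.98±0.38 for Krt16 and 0.27±0.34 for Krt17 (0 of 4 by edgeR or DESeq2, where 0.0237% of genes were called by edgeR). Krt16 alone was higher at an unadjusted p under 0.05, where 1.11% of genes were. In HFSCs they were 0.30±0.36, 1.06±0.71, 0.70±0.39 and 0.07±0.34, with 0 of 4 past an unadjusted p of 0.05 and 0% of genes called. Averaged over cell types (0.083% of genes called), by edgeR Krt16 was at 0.84±0.27 (adjusted p = 0.520) and Krt6b at 1.11±0.47 (adjusted p = 0.942). These 2 were higher at an unadjusted p under 0.05, where 2.11% of genes were, and 0 of 4 were above untreated in every library, where 1.47% of genes were. With 1 library left out the averaged Krt6b value ran from −0.38 to 1.66. The interaction gave −0.28±0.55 for Krt16, with 0 of 4 called and 0% of genes.

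Translational efficiency (TE), the footprint level relative to RNA of the same gene, gave no call among the 4 in any comparison, by edgeR with or without adjustment or by DESeq2 with it, and 0% of genes passed the adjusted test in each of the 4 comparisons. In simulated libraries of untreated HFSCs and progenitors, the edgeR fit of TE called 54% of genes set to change 4-fold. A missing call thus does not show that TE was unchanged. Between untreated HFSCs and progenitors the log2 changes of TE were −0.24±0.36 for Krt6a, −0.13±0.60 for Krt6b, −0.24±0.42 for Krt16 and 0.03±0.38 for Krt17. Between treated cells they were −0.11±0.29, 0.76±0.69, −0.08±0.51 and −0.07±0.24. With N1-AcSpd they were −0.06±0.32, 0.16±0.50, 0.30±0.37 and 0.08±0.35 in progenitors, and 0.09±0.29, 1.05±0.77, 0.50±0.51 and 0.01±0.26 in HFSCs. The 2 treated HFSC lysates gave Krt16 log2 ratios of 0.28 and −2.15, which combine RNA and footprints by the numbers as deposited.

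The ratio itself was low in these genes. Relative to RNA CPM, footprint CPM had a log2 ratio of −2.19 in Krt6b, −1.36 in Krt6a, −0.81 in Krt16 and −0.31 in Krt17, at percentiles 0.841, 2.17, 5.31 and 12.3 of the 2259 genes that averaged 10 counts or more in each assay. Krt14 was at 0.09 (percentile 22.9), Krt5 at 0.80 (percentile 52.6), Krt15 at 1.56 and Krt1 at 1.91. Over these 8 keratins a lower ratio went with a lower share of unique words (Spearman's rho = 0.98, Pearson's r = 0.94, a description across genes of the same libraries). How the authors counted reads with several matches is not given in the sources used here, and the part of uniqueness in the ratio was not tested. Of 100-base words of the whole transcript, 66.0% were unique in Krt6a, 69.4% in Krt6b, 75.7% in Krt16 and 100% in Krt17.

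**Figure D4:**
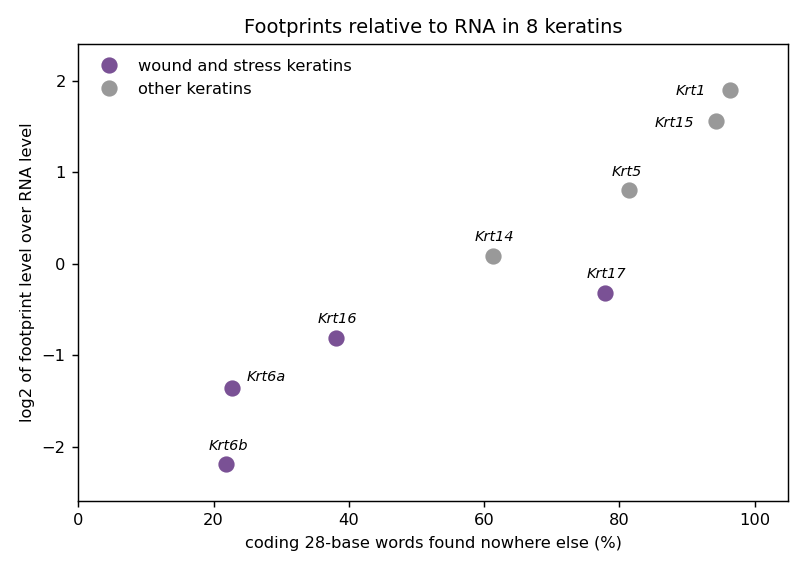
Log2 of footprint level over RNA level (means over 8 libraries each) against the percentage of coding 28-base words found nowhere else, for the 8 keratins that averaged 10 counts or more in each assay. Krt6b, Krt6a and Krt16 (purple) have the lowest ratios and the lowest uniqueness, and Krt1 and Krt15 the highest of both.

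Krt6a and Krt6b had nearly equal shares of unique words but differed in their ratio. Krt6b made up 9.23% of the RNA counts of the pair (95% exact binomial interval 9.18 to 9.28, counting error only) but 5.61% of the footprints (111 of 1978, 4.64 to 6.72). In RNA its share was 9.10 and 8.92% in untreated progenitors, 8.22 and 5.71% in untreated HFSCs, 14.7 and 11.4% in treated progenitors, and 5.09 and 8.49% in treated HFSCs, so treated progenitors were highest. In Ribo-seq the share ran from 1.08 to 9.09%, with intervals as wide as 1.40 to 12.5%, and was below the RNA share in each of the 6 lysates outside treated HFSCs. In treated HFSCs it was 8.31 and 1.08%, and which RNA share each belongs to depends on the doubted numbers. Krt16, with fewer unique words than Krt17, held 28.9% of the RNA counts of both and 22.3% of their footprints, though in treated HFSC replicate 1, by the numbers as deposited, the footprint share of 27.7% was above the RNA share of 21.0%.

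**Figure D5:**
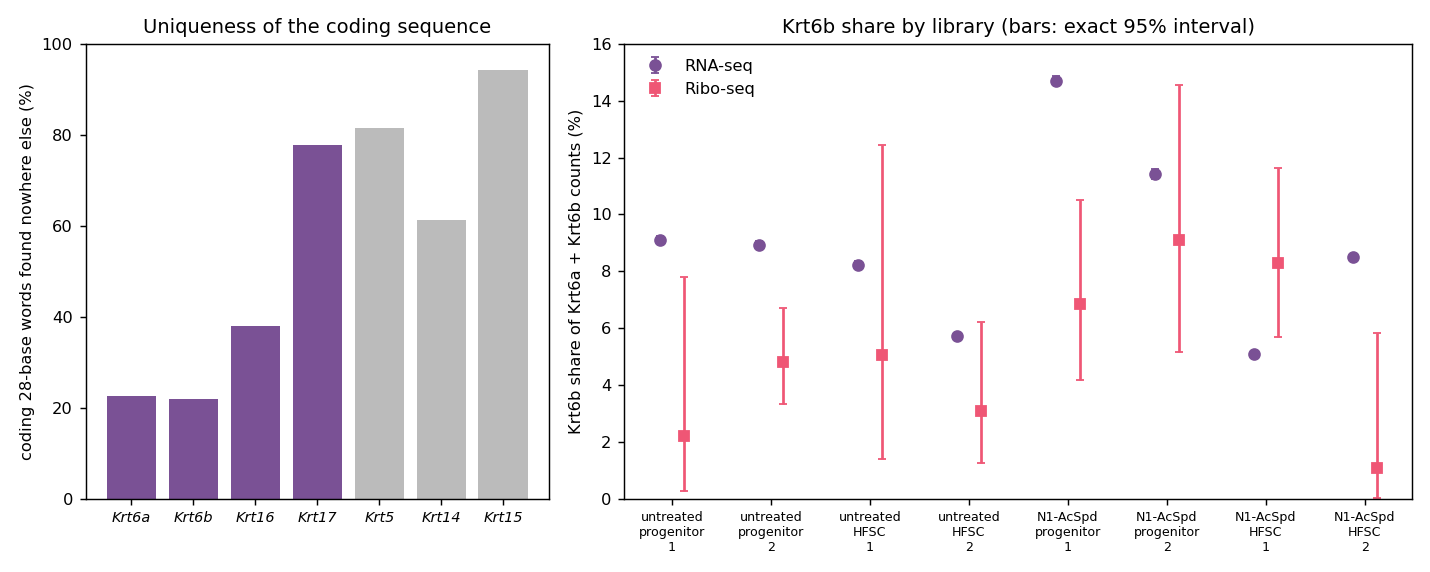
Left, percentage of coding 28-base words found nowhere else for the 4 keratins (purple) and for Krt5, Krt14 and Krt15 (grey). Right, Krt6b as a percentage of Krt6a plus Krt6b counts in each library with exact 95% binomial intervals, circles for RNA-seq and squares for Ribo-seq, which are below the RNA share in the 6 lysates outside treated HFSCs.

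The balance of keratin types was also compared. Per kilobase, type II (Krt6a plus Krt6b) over type I (Krt16 plus Krt17) was between 0.563 and 0.744 in the 8 RNA-seq libraries and between 0.305 and 0.440 in the 8 Ribo-seq libraries, with overlapping groups in both. Across those libraries log2 CPM of Krt6b and Krt16 had r = 0.97, Krt6a and Krt6b 0.84, and Krt16 and Krt17 0.48 (n = 8 libraries that share 2 mice, a description). Among 1032 other genes with a mean of at least 10 CPM and an s.d. of log2 CPM of at least 0.3, the most alike in pattern were Gltp (r = 0.97), Dsg1a (0.97) and Endou (0.97) for Krt6b, Gltp (0.98), Cers3 (0.98) and Ovol1 (0.98) for Krt16, Fzd10 (0.98), Crybg2 (0.95) and Sbsn (0.95) for Krt6a, and Arhgdig (0.93), Cyp3a13 (0.91) and Igfbp2 (0.87) for Krt17. Dsg1a is a desmosomal cadherin of upper layers, Cers3 makes barrier ceramides and Ovol1 is a transcription factor of differentiating keratinocytes. None of them was among the genes named for Krt6a or Krt17.

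Genes known from wounds and activated keratinocytes were followed as a list of 40, of which 39 were tested in RNA-seq. This list and those below were chosen with earlier results of these data known. Their counts beside all genes are thus a description only. Averaged over treatments, 12 were lower in HFSCs and 1 was higher, with a median of −0.55 against −0.01 over all genes, of which 256 of 14205 were lower and 300 higher. Among the lower ones were the cornified envelope precursors Sprr2h (−1.07±0.10), Sprr1b (−0.99±0.11), Sprr1a (−1.63±0.19) and Sprr2d (−1.57±0.20), the gap junction gene Gjb6 (−1.04±0.12), the alarmin Il33 (−1.83±0.26) and the urokinase receptor Plaur (−0.93±0.14). Serpinb2 (−1.5±0.24), Itga5 (−0.58±0.09), Ptgs2 (−0.75±0.16) and Cd44 (−0.35±0.08) were lower as well. Lcn2, an antimicrobial protein, was higher (0.77±0.13). With N1-AcSpd, averaged over cell types, 5 rose and 0 fell, with a median of 0.10 against −0.01, where 170 of 14205 genes rose and 63 fell. They were Sprr1b (1.47±0.11), Sprr1a (1.81±0.19), Sprr2h (0.94±0.10), Gjb6 (0.96±0.12) and Sprr2d (1.48±0.20). Called or not, 21 of the 39 were higher with N1-AcSpd and 18 lower. In footprints, Serpinb2 was lower in HFSCs (−1.11±0.26, adjusted p = 0.0186), S100a8 was higher with N1-AcSpd (1.39±0.33, adjusted p = 0.0471) and the collagenase Mmp13 was lower (−1.79±0.39, adjusted p = 0.0162). With counts summed over transcripts no gene was called lower in HFSCs or changed with N1-AcSpd in footprints, and DESeq2 called 0 genes with N1-AcSpd, so these calls depend on the processing.

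Regulators known to act on these keratin genes mostly did not pass. Of 26 tested in RNA-seq, 1 was higher in HFSCs, the Hedgehog effector Gli2 (0.97±0.11, adjusted p = 0.00446), and 0 were lower, with 3 higher and 2 lower at an unadjusted p under 0.05. Over all 14205 genes 1309 were higher and 1262 lower at that level, and 300 and 256 were called after adjustment. The regulators were thus near the share of all genes. Runx1 was at 0.41±0.11, Klf4 at −0.28±0.07, Hif1a at −0.27±0.09 and Fosl1 at −0.55±0.27. With N1-AcSpd 0 of 26 passed by edgeR, where 170 of 14205 genes were called higher and 63 lower. At an unadjusted p under 0.05, 1 was higher and 4 lower, among them Klf4 (0.22±0.07) and Gli2 (−0.41±0.11). Over all genes 1084 were higher and 1135 lower at that level.

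Proteins that bind, anchor or turn over these keratins were a list of 20, of which 19 were tested. The desmosome and cornified envelope linkers Ppl (−0.79±0.12), Evpl (−0.81±0.16) and Jup (−0.40±0.08) were lower in HFSCs, and 0 were higher. Over all 14205 genes 256 were called lower and 300 higher. At an unadjusted p under 0.05, 2 of the list were higher and 5 lower, against 1309 and 1262 of all genes. Sfn, the 14-3-3 protein that binds keratin 17, was at −0.32±0.09 and did not pass (adjusted p = 0.0851). With N1-AcSpd 0 of 19 passed, with 2 higher and 2 lower at an unadjusted p under 0.05 (1084 and 1135 of all 14205 genes), among them Evpl (0.46±0.16) and Sfn (0.24±0.09). Of 6 tested genes of the companion layer and inner bulge other than Krt6a, 0 passed in either comparison. At an unadjusted p under 0.05, 3 were higher in HFSCs (median 0.54), against 1309 of all 14205 genes. At that level 3 were lower with N1-AcSpd (median −0.36), against 1135 of all genes. Krt75, a companion layer keratin, was at 0.78±0.25 in HFSCs and −0.81±0.25 with N1-AcSpd.

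Markers of differentiated keratinocytes were followed beside these keratins. Of 6 tested, 4 were lower in HFSCs and 0 higher (256 and 300 of all 14205 genes), with a median of −1.33. With N1-AcSpd 2 were higher (170 of all genes), with a median of 0.96. Their summed RNA level was 306 to 331 CPM in untreated progenitors, 160 to 252 CPM in untreated HFSCs, 509 to 679 CPM in treated progenitors and 245 to 259 CPM in treated HFSCs. Markers of HFSCs summed to 382 to 424, 1078 to 1248, 259 to 284 and 629 to 772 CPM in the same order. Krt15 alone was at 683 and 764 CPM in untreated HFSCs and 346 and 309 CPM in treated HFSCs. Cd34 was at 67.4 and 86.8 CPM, then 89.9 and 68.2 CPM. Of these 5 markers, 1 was higher and 4 lower with N1-AcSpd averaged over cell types, and 1 was called lower. In the differentiated sum, Sbsn alone averaged 263 CPM over the 8 RNA-seq libraries. Of the other cell types, fibroblast markers summed to at most 13.6 CPM with Lum at 0, melanocyte markers to 13.8 CPM, immune markers to 3.18 CPM with Cd207, Lyz2 and Trdc at 0, endothelial markers to 1.62 CPM with Cdh5 and Emcn at 0, and Merkel cell markers to 0.271 CPM with Atoh1 at 0. Basal keratinocyte markers summed to 40521 to 48135 CPM. The part of differentiating cells in the keratin values was not tested.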

How the data were processed

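For Ribo-seq, adapter trimming by the authors used flexbar, rRNA and tRNA reads were taken out, and alignment was to mm10; the submitters' processing notes name STAR 2.7.3a, Bowtie 1.2.3, featureCounts and the build GRCm38.p5. Which region and strand were counted, and what was done with reads of several matches, is not given in the sources used here. The authors deposited raw read counts per transcript without UMIs. Their tables of differential translation (fold changes and p-values from Riborex) were used only for gene names; their counts were equal in 512208 of 512208 values, and 80 per-sample columns were not used.

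Per gene, the transcript with the most footprints over 8 libraries was kept (22579 genes of 64026 transcripts), and each member had 1 transcript. The members and gene lists were chosen with earlier results of these data known. Here edgeR 4.0.16 in R 4.3.3 fitted the 4 groups of an assay with TMM factors, genes of a mean of at least 1 count, a quasi-likelihood test and Benjamini-Hochberg adjustment at 0.05. TE was the interaction of assay and group in the 8 libraries of a comparison, and DESeq2 1.42.0 was an alternative. The scripts were tested on simulated data. CPM are counts over TMM-scaled library size, and lengths are from GENCODE M21. Replicate numbers name the donor mice and so pair the samples; replicate differences correlated between 0.35 and 0.67 in 3 RNA-seq groups and negatively with treated HFSCs. With 2 mice per group, the spread behind a p-value is pooled over the groups of a fit and moderated across genes. Words of 28 bases were searched on both strands of GRCm38 and in GENCODE M21 transcripts. Genes named were the 4 members, the 8 other keratins of highest RNA level, in other lists those past the threshold and those of smallest p, up to 4 in each direction, and the 3 most alike genes per member; Mmp13, S100a8 and Serpinb2 footprints follow the same rule. A gene of the wound list that the rule names is not reported here by name.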

Additional observations from a re-analysis of the deposited data

How the results depend on the processing

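The 4 keratins were lower in HFSCs in RNA-seq under every alternative run (DESeq2, RLE factors, other minimums, counts summed over transcripts, only the libraries compared, the replicate block, each library left out); calls and sizes changed. DESeq2 added calls for Krt6b in untreated cells (−0.87), Krt16 in treated cells (−1.002), and Krt16 (−0.87) and Krt17 (−0.45) averaged over treatments; with N1-AcSpd it added Krt6b in progenitors (0.82) and averaged (0.51). Without a minimum count Krt16 was called averaged over treatments (−0.87). The Krt6b call in treated cells was lost with a minimum mean of 10 counts (−1.48), summed transcripts (−1.48) and only the libraries compared (−1.47). With RLE factors the averaged Krt16 footprints passed (−1.03).

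With the mouse as a replicate block, the Krt6b call in treated cells was lost (−1.47) and Krt16 footprints averaged over treatments passed (−1.11); no other call on the 4 keratins changed. The block turned TE of Krt17 to −0.00053 between untreated cell types and −0.0047 with N1-AcSpd in HFSCs. With both treated HFSC RNA-seq replicates swapped between mice in the block, an alternative chosen after seeing the data, 751, 903 and 1948 genes were called in RNA-seq between cell types untreated, treated and averaged, and 446, 269 and 1260 with N1-AcSpd in progenitors, HFSCs and averaged, with 3, 3 and 4 of the 4 keratins lower in HFSCs and 2, 0 and 2 higher with N1-AcSpd.

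Values near 0 changed sign. Krt17 became −0.029 in footprints with N1-AcSpd in HFSCs and −0.033 in TE between untreated cell types with a minimum of 10; its TE with N1-AcSpd in HFSCs became −0.013 with that minimum and −0.0083 without one. Krt6a became −0.044 in the RNA interaction when added to Krt6b, and its TE with N1-AcSpd in progenitors 0.0027 with DESeq2, 0.0030 with RLE factors and 0.014 with summed transcripts. The cause was not tested.

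Leaving out 1 library at a time, or for TE both libraries of a lysate by the deposited numbers, gave these ranges. RNA, HFSCs against progenitors averaged: Krt6a −0.52 to −0.36, Krt6b −1.38 to −1.01, Krt16 −1.10 to −0.68; Krt17 −0.58 to −0.28; untreated, Krt17 −0.69 to −0.088; treated, Krt6b −1.90 to −1.15 and Krt16 −1.47 to −0.64. RNA with N1-AcSpd in progenitors: Krt6b 0.50 to 1.07, Krt16 0.29 to 0.82; averaged, Krt6b 0.29 to 0.67 and Krt16 0.21 to 0.62. RNA with N1-AcSpd in HFSCs: Krt6a 0.090 to 0.38, Krt6b −0.22 to 0.52, Krt16 −0.17 to 0.67, Krt17 −0.11 to 0.25. In progenitors Krt6a ran from 0.12 to 0.27 and Krt17 from −0.17 to 0.42, and averaged Krt17 from −0.063 to 0.23. RNA interaction: Krt6a −0.11 to 0.19, Krt6b −1.04 to −0.29, Krt16 −0.75 to 0.085, Krt17 −0.38 to 0.22. Footprints between cell types: Krt16 averaged −1.51 to −0.72, untreated −1.31 to −0.44, treated −2.15 to −0.57; Krt6b averaged −2.26 to −0.27, untreated −1.09 to 0.30, treated −3.75 to −0.16; Krt6a treated −0.89 to −0.26. Footprints with N1-AcSpd in HFSCs: Krt6a −0.085 to 0.58, Krt6b −1.87 to 1.75, Krt16 −0.39 to 1.23, Krt17 −0.027 to 0.11; Krt6a in progenitors −0.025 to 0.37, Krt6b in progenitors 0.83 to 2.23, Krt6b averaged −0.38 to 1.66, Krt16 averaged 0.26 to 1.08. Footprint interaction: Krt6a −0.25 to 0.39, Krt6b −2.98 to 0.65, Krt16 −1.30 to 0.30. TE between untreated cell types: Krt6b −0.34 to 1.07, Krt16 −0.53 to 0.044, Krt17 −0.26 to 0.21. TE between treated cell types: Krt6a −0.48 to 0.078, Krt6b −2.72 to 1.68, Krt16 −1.55 to 0.84, Krt17 −0.26 to 0.10. TE with N1-AcSpd in HFSCs: Krt6a −0.28 to 0.33, Krt6b −2.44 to 2.02, Krt16 −0.99 to 1.46, Krt17 −0.22 to 0.20. TE with N1-AcSpd in progenitors: Krt6a −0.15 to 0.11, Krt6b −0.085 to 1.33, Krt16 0.061 to 0.58, Krt17 −0.22 to 0.31.

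Counts of genes called in RNA-seq moved more than these values. Between untreated cell types 21 became 268 with DESeq2, 168 without a minimum, 3 with the block and 10 with only the libraries compared; between treated ones 106 became 375, 256, 44 and 27, and 70 with summed transcripts; averaged, 556 became 949 and 873. With N1-AcSpd 34 in progenitors became 174, 107 and 7, with 20 at a minimum of 10 and 1 with summed transcripts; 0 in HFSCs became 125 and 38, with 5 for only the libraries compared; 233 averaged became 581, 419 and 135, with 147 for summed transcripts. With 1 library left out these counts ran from 1 to 7, 2 to 43 and 190 to 457 between cell types, and from 0 to 3, 0 to 4 and 42 to 137 with N1-AcSpd, in the same order. Footprint calls stayed between 0 and 18 in the alternatives other than leaving out a library.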
